A study of Mus musculus with 4 samples.

Results

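Interferon-stimulated genes are the genes a cell switches on when it senses interferon, and 39 of them were followed across cell classes and treatments in mouse bone marrow. The members were taken by gene symbol, each matched 1 row of the deposited matrices, and they are 39 of 33696 genes measured. Single-cell RNA was counted as unique molecular identifiers (UMIs, 1 per captured molecule) in 4 libraries of CD45.2+ bone marrow cells. The cells came from lethally irradiated mice rebuilt with equal parts CD45.2+ Tet2+/- marrow and CD45.1+ Tet2+/+ competitor marrow, and sorting kept only the CD45.2+ cells. B12+Butyrate mice received 0.29 µg of vitamin B12 by intraperitoneal injection 2 times a week and drinking water with 100 mM sodium butyrate. B12 mice received the same injections and water with 100 mM NaCl, Butyrate mice received PBS injections and butyrate water, and Control mice received PBS injections and NaCl water. Treatment ran for 7 months from 1 month after transplant. Each library pools viably frozen marrow of 3 mice, loaded as equal parts Kit+ and Kit- cells, so the shares of cell classes are not those of whole marrow.

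All 4 groups carry the Tet2+/- genotype, so no comparison here bears on Tet2. With 1 library per group there is no test between groups, and the intervals given below cover counting error only. Differences between mice and between library preparations cannot be told apart from the treatments.

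Type I interferons bind the receptor chains Ifnar1 and Ifnar2, whose kinases Jak1 and Tyk2 pass the signal to STAT proteins. Stat2 and Irf9 belong to the complex that binds the interferon-stimulated response element (ISRE) in promoters, while interferon gamma acts mainly through gamma-activated sites (GAS). In marrow the response is known for antiviral defence, for waking dormant stem cells and for marking a small subset of monocytes.

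The libraries held 7616 (B12+Butyrate), 8048 (B12), 6793 (Butyrate) and 8752 (Control) cells after requiring 500 genes, 1000 UMIs and at most 10% mitochondrial UMIs. The matrices summed to between 95892397 and 123435815 UMIs a library, and median depth of the kept cells ran from 11583.5 to 12544.5 UMIs. Cells were put in classes by the summed UMIs of marker genes, and a cell that passed several gates was put in none. In each class a gene's level is its share of the UMIs of that class in standard CPM units, with an exact 95% Poisson interval. Among the kept barcodes 93 occur in more than 1 library. In the gates named below, no marker of another class stood among the 10 leading genes, although the conventional DC-like gate had only 1 of its own there, Cd209a. Cd209a also marks monocyte-derived dendritic-like cells, which this gate does not separate from conventional DCs.

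Many of the members carried an ISRE core in their promoter windows. RefSeq promoter windows (GRCm38.p6, from 250 bases before to 50 after the start) were found for 30 of the 39 members. The ISRE core GAAANNGAAA, or TTTCNNTTTC when read on the other strand, occurred in 18 of these 30 (60%), against 3.99% of 27025 genes with a window. The GAS core TTCNNNGAA, which reads the same on both strands, occurred in 7 of the 30 (23.3%), against 9.55% of genes, and 1 member window held overlapping matches of both motifs. Windows around the ISRE core matches are shown for 8 members, chosen to span genes held by few cells, genes spread over most cells and a guanylate-binding gene. They are written 5′ to 3′ on the gene's strand, with the ISRE core matches in capitals.
Ifit1: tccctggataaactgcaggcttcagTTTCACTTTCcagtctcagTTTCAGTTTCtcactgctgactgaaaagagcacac
Ifit3: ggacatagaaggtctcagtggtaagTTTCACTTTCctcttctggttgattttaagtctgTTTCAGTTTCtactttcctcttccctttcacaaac
Ifit3b: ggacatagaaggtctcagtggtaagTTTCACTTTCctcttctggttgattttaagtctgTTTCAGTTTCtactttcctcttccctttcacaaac
Isg15: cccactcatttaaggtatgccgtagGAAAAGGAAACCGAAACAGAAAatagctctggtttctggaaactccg
Rsad2: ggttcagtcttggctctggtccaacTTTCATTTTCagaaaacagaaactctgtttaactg
Bst2: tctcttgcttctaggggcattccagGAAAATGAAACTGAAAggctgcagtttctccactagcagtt
Ifi203: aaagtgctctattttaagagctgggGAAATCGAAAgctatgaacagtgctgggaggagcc
Gbp3: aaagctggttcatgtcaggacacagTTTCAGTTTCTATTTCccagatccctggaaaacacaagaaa
In GRCm38.p6 these lie at chr19:34640760-34640838 (Ifit1, plus strand), chr19:34583348-34583441 (Ifit3, plus), chr19:34607744-34607837 (Ifit3b, plus) and chr4:156200850-156200921 (Isg15, minus). The others lie at chr12:26456538-26456597 (Rsad2, minus), chr8:71537562-71537627 (Bst2, minus), chr1:173942493-173942552 (Ifi203, minus) and chr3:142559974-142560039 (Gbp3, plus). The Ifit3 and Ifit3b windows hold the same 94 letters. Ifit3b is a near copy of Ifit3, reads may be split between them, and their separate levels are uncertain. Isg15 holds 3 overlapping matches between 78 and 66 bases before its start, and Ifi203 holds 1 match at 35 bases before its start.

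Plasmacytoid DC-like cells had the highest summed level of the 39 members, at 4950 (B12+Butyrate), 4744 (B12), 4429 (Butyrate) and 4496 (Control) CPM. That rank rests on Bst2, since without it their sums were 1721, 1500.4, 1672 and 1464 CPM in the same order, below monocyte-like cells in every library (2435, 1877, 2732 and 1836 CPM). Monocyte-like cells did not then rank first in every library. Without Bst2, T-like cells had 1936.5 CPM in Control, and T-like and conventional DC-like cells had 2148 and 2181 CPM in B12. With Bst2 counted, conventional DC-like cells ran from 1979.5 to 2346 CPM and T-like cells from 1894 to 2279. NK-like cells ran from 1513 to 1789 and B lineage-like cells from 1202 to 1481 CPM. HSC/MPP-like cells ran from 804 to 955 CPM, and the 2 lowest classes were GMP-like cells at 417 to 491 and neutrophil-like cells at 450 to 499 CPM. Monocyte-like cells reached 2567 (2542 to 2592) CPM in B12+Butyrate against 1985 (1965 to 2004) in B12, and 2872 (2847 to 2897) in Butyrate against 1941 (1924 to 1957) in Control. In this class both libraries with butyrate stood above both without it, and their intervals were apart.

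**Figure D1:**
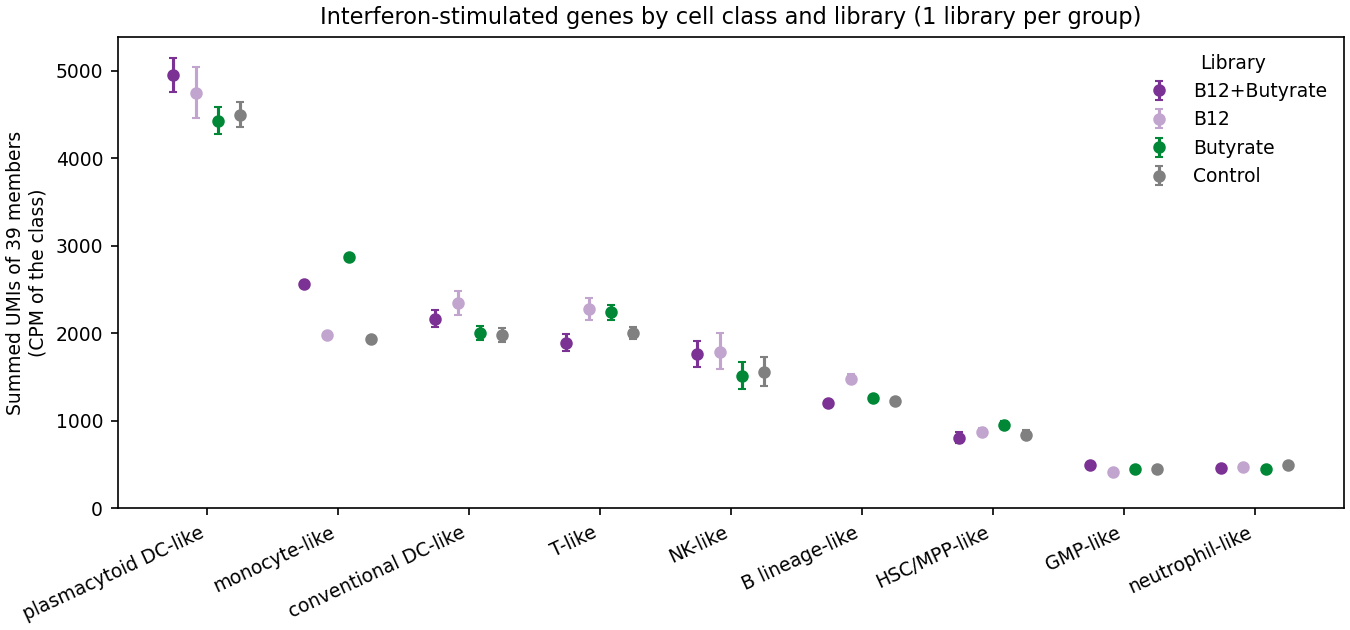
Summed level of the 39 members in each class (vertical axis, CPM), with exact 95% Poisson intervals, for the 4 libraries in each of 9 gated classes. In monocyte-like cells Butyrate (2872 CPM) and B12+Butyrate (2567 CPM) lie above B12 (1985 CPM) and Control (1941 CPM).

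Which members make up the sum differed by class. In plasmacytoid DC-like cells Bst2, which tethers budding virus to the cell surface and is a known surface marker of these cells, held 65.4% of member UMIs. In monocyte-like cells Ifi27l2a, a small interferon-induced protein of the mitochondrial and nuclear membranes, held 37.1%. In neutrophil-like cells Samd9l, an antiviral restriction factor, held 34.7%, and it was the 1 member to reach 50 CPM there. In B lineage-like and HSC/MPP-like cells Ifi203, a member of the nucleic acid binding HIN-200 family, was the highest, at 271 and 132 CPM on average over the libraries.

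In monocyte-like cells the comparison of Butyrate with Control asks how butyrate changes the members without B12. Over all 39 members, 33 were higher in Butyrate, against 53.7% of all genes with a UMI in either library. A minimum of 10 CPM in either library was passed by 34 members, 2 of which (Ifit1 and Oas1a) passed it in Butyrate alone. Of these 34, 30 were higher, against 51.4% of genes past the same minimum, and the median log2 ratio was 0.36, against 0.00 for those genes. Counting intervals were apart for 26 members, each higher, against 13.8% of genes higher with intervals apart. A difference of 1.5-fold or more (on log2 of CPM plus 10) was reached by 4 members, against 0.344% of genes in the higher direction, namely Ifit2, Oasl2, Mx1 and Ifi27l2a. None was lower by that much, against 0.499% of genes. With a pseudocount of 1 CPM, 11 members passed 1.5-fold. The share of all genes was not counted at that setting, so this number has no background.

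In the presence of B12, 36 of the 39 members were higher in B12+Butyrate than in B12, against 47.6% of genes with a UMI. Past the minimum, 32 of 35 were higher, against 46.6% of genes, with a median log2 ratio of 0.20 against −0.01 for the genes. Of these 35, 4 (Ifit1, Ifit3, Rsad2 and Igtp) passed the minimum in B12+Butyrate alone. Intervals were apart for 20, each higher, against 13% of genes. A 1.5-fold difference was reached by Ifit3, Rsad2 and Usp18, against 0.179% of genes, and by 0 members without the 5% of cells richest in members. With only the 1 cell holding most UMIs of each member left out of every library, Ifit3 was still past 1.5-fold and Rsad2 and Usp18 were not, while all 4 calls against Control were kept. The 2 butyrate comparisons share no library, and 27 of the 34 members measured in both (79.4%) were higher in both, against 30.1% of genes. Across those 34 members the log2 ratios of the pair had a Pearson r of 0.59, against 0.50 across 8255 genes, which are not independent replicates.

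**Figure D2:**
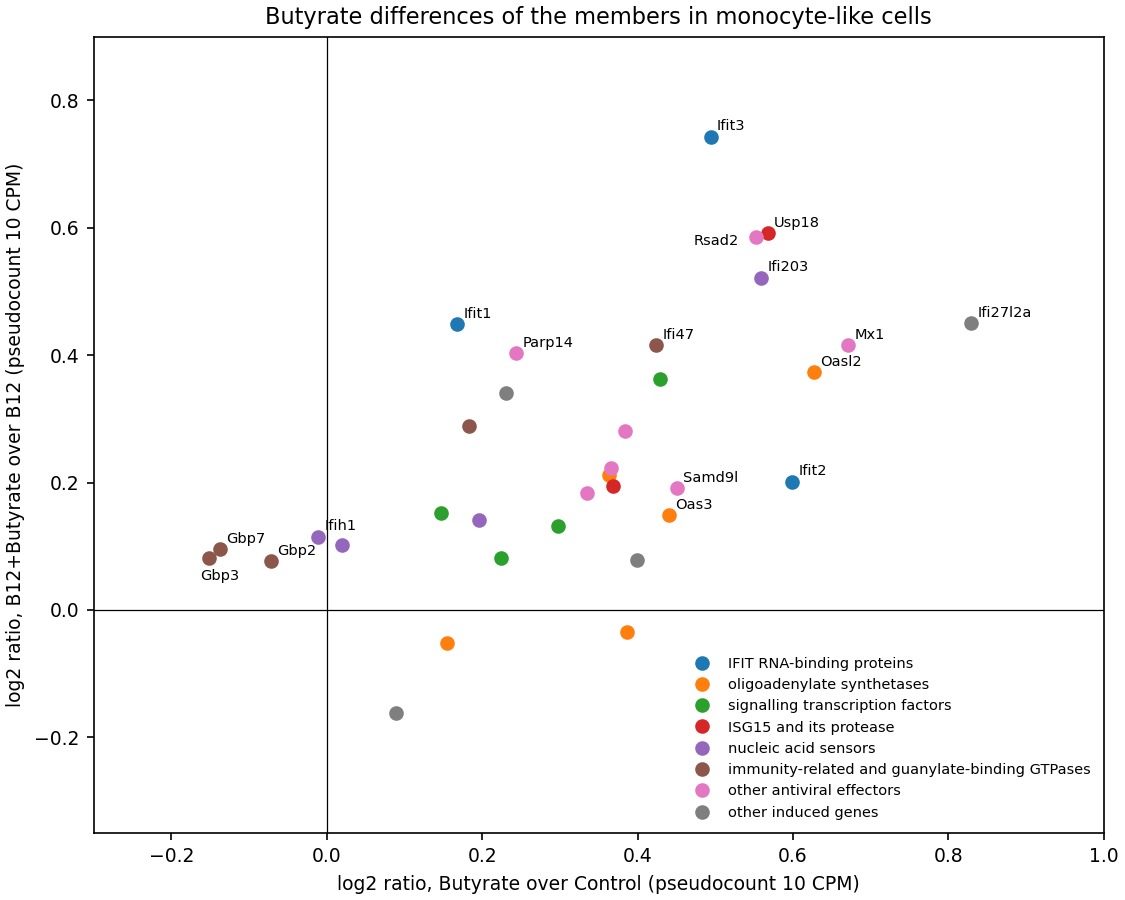
Log2 ratio of each member in monocyte-like cells, Butyrate over Control (horizontal) and B12+Butyrate over B12 (vertical), coloured by role, with a pseudocount of 10 CPM. Most members lie in the upper right; Gbp2, Gbp3, Gbp7 and Ifih1 lie left of 0, and Oas2, Oasl1 and Cxcl10 lie below 0.

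The transcription factors that carry the signal had median log2 ratios of 0.26 against Control and 0.14 against B12. Irf1, induced strongly by interferon gamma, had 84.1 CPM in Butyrate against 66.6 in Control, and 80.1 in B12+Butyrate against 72.3 in B12. Irf9 was at 67.8 CPM in Butyrate against 60.2 in Control, and at 69.8 in B12+Butyrate against 61.8 in B12. Stat2 was at 58.7 CPM in Butyrate against 48.8 in Control, and at 52.1 in B12+Butyrate against 48.7 in B12. Irf7, the amplifier of type I interferon production, stood further apart, with 43.8 CPM in Butyrate against 29.95 in Control, and 38.4 in B12+Butyrate against 27.7 in B12. All 4 factors were higher in both butyrate libraries, with intervals apart for 4 of 4 against Control and for 2 of 4 against B12.

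Among nucleic acid sensors, Ifi203 had the highest ratios. Ifi203 had 248 (240.3 to 255) CPM in Butyrate against 165 (160.2 to 169.7) in Control, with 212 (205 to 219.6) in B12+Butyrate against 145 (139.7 to 150.2) in B12. Its log2 ratios were 0.56 and 0.52. Zbp1, a sensor of Z-form nucleic acid, was at 60.5 CPM in Butyrate against 59.6 in Control, and 60.95 in B12+Butyrate against 56.1 in B12. The cytosolic RNA helicase Ifih1 was at 45.8 and 46.2 CPM in Butyrate and Control and 45.0 and 40.8 CPM in B12+Butyrate and B12. For both genes the intervals overlapped in both comparisons. Dhx58, its relative, had 24.1 (21.9 to 26.5) CPM in Butyrate against 19.8 (18.2 to 21.5) in Control, with intervals apart, and 21.6 (19.4 to 24.0) in B12+Butyrate against 18.7 (16.8 to 20.6) in B12, where they overlapped.

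The effectors of RNA restriction were low in level. Ifit2, which binds foreign RNA, had 27.9 (25.4 to 30.4) CPM in Butyrate against 14.99 (13.6 to 16.5) in Control, with 20.1 (17.99 to 22.5) in B12+Butyrate against 16.2 (14.5 to 18.1) in B12. Ifit3 had 23.3 CPM in Butyrate against 13.7 in Control, and 23.3 in B12+Butyrate against 9.92 in B12, with log2 ratios of 0.49 and 0.74. Ifit1 had 11.9 and 9.48 CPM in Butyrate and Control, and 13.7 and 7.38 CPM in B12+Butyrate and B12, while Ifit3b stayed under 10 CPM in every library. Among the genes of the oligoadenylate synthetase family Oasl2 was highest, with 42.4 (39.4 to 45.6) CPM in Butyrate against 23.9 (22.2 to 25.8) in Control. Its level was 39.6 (36.5 to 42.8) CPM in B12+Butyrate against 28.3 (26.0 to 30.7) in B12. All 5 genes of the family were higher in Butyrate than in Control. By contrast Oas2 and Oasl1 were lower in B12+Butyrate than in B12, at −0.03 and −0.05 on the log2 scale with overlapping intervals.

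The ubiquitin-like modifier Isg15 had 37.4 CPM in Butyrate against 26.7 in Control, and 36.5 in B12+Butyrate against 30.7 in B12. Usp18, which removes Isg15 from proteins and dampens the receptor, had 24.8 CPM in Butyrate against 13.5 in Control, and 23.3 in B12+Butyrate against 12.1 in B12. Both were higher in each butyrate library with intervals apart.

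The other antiviral effectors were higher in 7 of 7 measured members in both comparisons, with intervals apart each time. Bst2 had 139.7 (134 to 145) CPM in Butyrate against 105 (101 to 109) in Control, and 132 (127 to 138) in B12+Butyrate against 107 (103 to 112) in B12. Trim30a, a RING finger protein, had 152 CPM in Butyrate against 119 in Control, and 141 in B12+Butyrate against 123 in B12. Parp14, an ADP-ribosyltransferase, had 94.9 CPM in Butyrate against 78.5 in Control, and 101 in B12+Butyrate against 74.0 in B12. For all 3 genes the 2 butyrate libraries were the higher ones. Samd9l had 78.8 CPM in Butyrate against 55.0 in Control, and 71.5 in B12+Butyrate against 61.4 in B12. Mx1, a dynamin-like GTPase that blocks viral replication, had 55.7 (52.2 to 59.3) CPM in Butyrate against 31.2 (29.2 to 33.4) in Control, and 46.7 (43.4 to 50.2) in B12+Butyrate against 32.5 (30.1 to 35.1) in B12. Its log2 ratios were 0.67 and 0.42. Rsad2, the radical enzyme viperin, had 19.6 and 10.2 CPM in Butyrate and Control, and 15.4 and 6.94 CPM in B12+Butyrate and B12. Its genomic neighbour Cmpk2 ran from 26.2 CPM in Control to 36.7 in Butyrate, and Isg20 stayed at 4.59 to 6.06 CPM.

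The GTPases that attack vacuoles of intracellular microbes divided. Ifi47 had 51.3 CPM in Butyrate against 35.7 in Control, and 51.3 in B12+Butyrate against 35.9 in B12. Irgm1 was also higher in both, at 30.2 and 25.4 CPM in Butyrate and Control and 33.6 and 25.7 CPM in B12+Butyrate and B12. The guanylate-binding genes were not higher in Butyrate. Gbp3 had 20.2 CPM in Butyrate against 23.6 in Control, Gbp7 19.9 and 22.9, and Gbp2 14.5 and 15.7, each with overlapping intervals. Set against B12, B12+Butyrate gave these 3 genes log2 ratios of 0.08 to 0.10, again with overlapping intervals. Igtp and Iigp1 were low, at 7.13 to 11.0 and 0.34 to 1.34 CPM.

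Ifi27l2a was the highest member and had the highest ratio against Control. It had 1182 (1166 to 1198) CPM in Butyrate against 661 (651 to 670.3) in Control, with a log2 ratio of 0.83. It had 969 (953 to 984) CPM in B12+Butyrate against 706 (695 to 718) in B12, with a log2 ratio of 0.45. Without Ifi27l2a and Samd9l, the 2 members with most UMIs over all cells, the summed level was 1611 CPM in Butyrate against 1225 in Control, and 1527 in B12+Butyrate against 1217 in B12. Among the remaining induced genes, the apoptosis factor Xaf1 had 40.3 and 32.9 CPM in Butyrate and Control, and 40.8 and 30.1 CPM in B12+Butyrate and B12. Rtp4 ran from 11.99 CPM in Control to 18.99 in Butyrate, and Ifi44 stayed at 0.78 to 2.22 CPM.

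**Figure D3:**
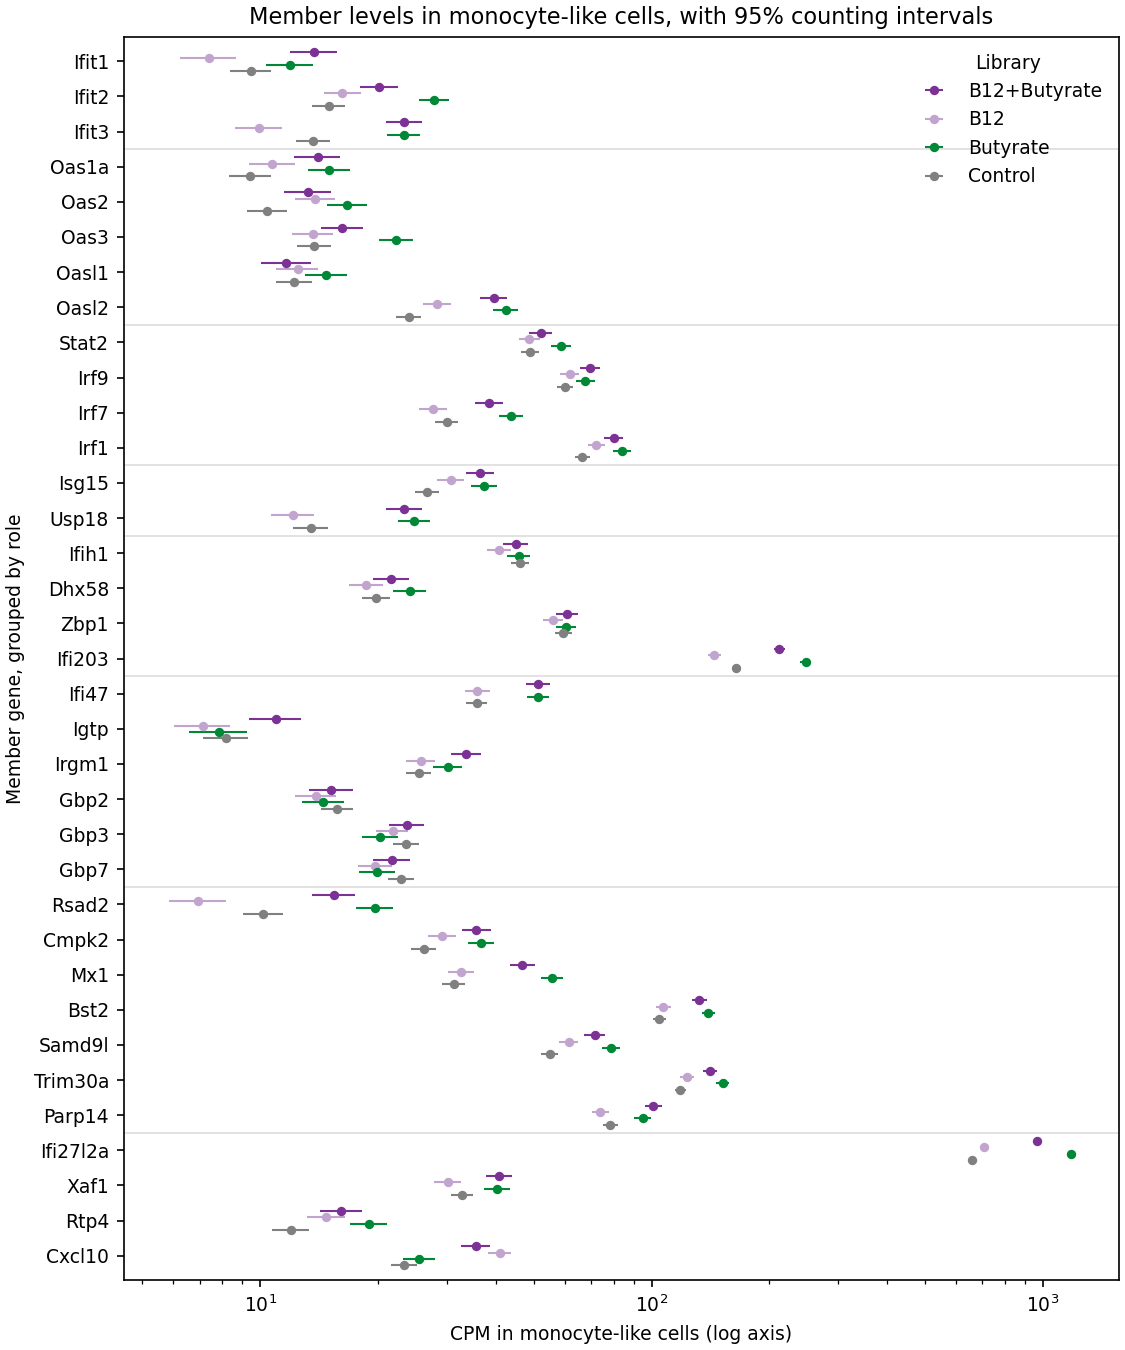
CPM in monocyte-like cells (log axis) with exact 95% Poisson intervals for the 35 members that reached 10 CPM in a library, grouped by role; points within a row are B12+Butyrate, B12, Butyrate and Control from top to bottom. The butyrate libraries lie to the right for most rows, from Ifi27l2a at 1182 CPM in Butyrate to Rsad2 at 19.6, and the Gbp2, Gbp3 and Gbp7 rows show overlapping intervals.

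B12 alone left the members mixed in monocyte-like cells. Against Control, 18 of 39 were higher in B12, against 51.7% of genes with a UMI, and past the minimum the median log2 ratio over 33 members was 0.01, with intervals apart for 5 higher and 4 lower. The share of genes with intervals apart was 13.5% higher and 13.6% lower. Cxcl10, a chemokine that draws T cells, was the 1 member past 1.5-fold, against 0.12% of genes, with 40.9 (38.2 to 43.8) CPM in B12 against 23.3 (21.6 to 25.2) in Control. No member passed it once cells were thinned to 2000 UMIs, nor with the cell richest in Cxcl10 left out of each library. In the presence of butyrate, 14 of 39 were higher in B12+Butyrate than in Butyrate, against 47.3% of genes with a UMI. The median log2 ratio there was −0.06, 23 of 35 were lower, against 51.2% of genes, and no member passed 1.5-fold, against 0.0357% of genes higher and 0.119% lower. Intervals were apart for 2 higher and 6 lower, against 6.72% and 8.1% of genes.

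The other genes of the pathway, 94 in 6 lists, were read in the same cells. None of the 11 interferon genes reached 10 CPM in monocyte-like cells. Ifnb1, which encodes interferon beta, had 1 UMI in B12+Butyrate against 22 in B12, and 2 in Butyrate and 7 in Control; the 22 came from 14 cells. No receptor chain was past 1.5-fold. Ifnar1 had 68.9 CPM in Butyrate against 60.7 in Control, and 59.4 in B12+Butyrate against 62.9 in B12. Ifnar2 had 213 CPM in Butyrate against 201 in Control, and 210.4 in B12+Butyrate against 199 in B12. The interferon gamma receptor chain Ifngr1 had 248 (241 to 256) CPM in Butyrate against 295 (289 to 301) in Control, and 264 in B12+Butyrate against 265 in B12. Its partner Ifngr2 ran from 128 to 137.3 CPM and Il10rb from 48.7 to 52.9 CPM. Against Control, intervals were apart for Ifnar1 and Ifnar2 (higher in Butyrate) and for Ifngr1 (lower), and against B12 they overlapped for all 5 chains. Of these 5, 4 were higher in Butyrate than in Control, against 51.4% of genes, and 1 was higher in B12+Butyrate than in B12, against 46.6%.

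Jak1 had 204 CPM in Butyrate against 210.1 in Control, and 205 in B12+Butyrate against 187 in B12, where intervals were apart. Jak2 ran from 63.2 to 66.8 CPM and Tyk2 from 45.7 to 53.3 CPM, with overlapping intervals in both butyrate comparisons. Stat3 had 154 CPM in Butyrate against 185 in Control, and 164 and 165 CPM in B12+Butyrate and B12, with intervals apart in the first pair.

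Socs3, a feedback inhibitor of cytokine signalling that is not limited to interferon, went the other way. It had 5.74 (4.68 to 6.98) CPM in Butyrate against 21.1 (19.5 to 22.9) in Control, from 101 and 598 UMIs. It had 4.91 (3.87 to 6.14) CPM in B12+Butyrate against 21.2 (19.3 to 23.3) in B12, from 77 and 434 UMIs. The log2 ratios were −0.98 and −1.07, and it was the 1 regulator past 1.5-fold, against 0.499% and 0.298% of genes in the lower direction. Irf2bp2 was at 0.30 and 0.06 on the log2 scale, Pias1 at 0.02 and 0.16, Irf2 at 0.08 and 0.10 and Ptpn2 at −0.09 and −0.07. Of 12 measured sensors and adaptors, 6 were higher in Butyrate than in Control, against 51.4% of genes. The adaptor Myd88 had 56.1 CPM in Butyrate against 79.7 in Control, and 56.2 in B12+Butyrate against 75.04 in B12. Irf8, a factor of monocyte and dendritic cell development, was at 0.39 and 0.06, the kinase Ikbke at −0.36 and −0.14, the RNA sensor Rigi at 0.19 and 0.33, and Tlr7 at 0.04 and 0.16.

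A further 50 interferon-induced genes outside the member list were read too. Of 38 measured, 35 were higher in Butyrate than in Control, against 51.4% of genes past the same minimum, with a median log2 ratio of 0.21. Of 37 measured, 34 were higher in B12+Butyrate than in B12, against 46.6% of genes, with a median of 0.22. HIN-200 relatives of Ifi203 were among the highest ratios. Ifi213 had 32.3 CPM in Butyrate against 16.6 in Control, and 29.3 in B12+Butyrate against 17.4 in B12. Ifi211 was at 0.54 and 0.50 on the log2 scale, Ifi205 at 0.50 and 0.66, and the secreted lectin-binding protein gene Lgals3bp at 0.55 and 0.45. Members of the HIN-200 family are similar in sequence, and reads may be split between them. In B12 against Control 13 of 36 were higher, against 50.9% of genes, with a median of −0.06.

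Composition of the monocyte gate also differed between libraries, though not every list moved alike in both butyrate comparisons. The neutrophil markers summed to 254 CPM in Butyrate against 459 in Control, and to 286 in B12+Butyrate against 343 in B12. The GMP markers summed to 855 and 1252 CPM in Butyrate and Control, and to 1084 and 1315 CPM in B12+Butyrate and B12. All 8 neutrophil markers and all 5 GMP markers were detected in each library, and the 5 plasmacytoid DC markers summed to at most 5.80 CPM, with Klk1 at 0 in 3 libraries. Median mitochondrial shares were 2.36% in Butyrate and 1.92% in Control, and 2.12% in B12+Butyrate and 1.87% in B12. Genes known to answer to cell handling summed to 5828 CPM in Butyrate against 4739 in Control, and to 5515 in B12+Butyrate against 5636 in B12. The part of these marker lists in the members' differences was not tested.

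The difference was present in cells that were not cycling and had lower median ratios in cycling ones, a contrast that was not tested. Cells without a cycling or nonclassical signature had a summed member level of 3331 CPM in Butyrate against 2222 in Control, and of 2933 in B12+Butyrate against 2335 in B12. Of their measured members, 31 of 34 were higher in Butyrate than in Control, against 50.6% of genes, and 32 of 35 were higher in B12+Butyrate than in B12, against 47.8%. Cycling cells were lower in every library, with 1417 CPM in Butyrate against 1073 in Control, and 1164 in B12+Butyrate against 1117 in B12. Their median log2 ratio was 0.20 in Butyrate against Control, with 16 of 21 higher against 50.3% of genes. For B12+Butyrate over B12 it was −0.01, with 11 of 23 higher against 49.7%. Nonclassical-like cells, 27 to 49 a library, had 3220 CPM in Butyrate against 2495 in Control, and 3219 in B12+Butyrate against 2686 in B12. Their members were mixed, with 22 of 36 higher and 14 lower in Butyrate than in Control, against 45.8% of genes higher. For B12+Butyrate over B12, 25 of 35 were higher and 10 lower, against 50.8% of genes higher. Cycling cells made up 12.1% (10.2% to 14.1%) of the gate in B12+Butyrate and 18.2% (16.3% to 20.2%) in B12, with intervals apart. Their shares in Butyrate and Control had overlapping intervals. With the 3 subsets set to the same proportions in each library, the median log2 ratio of Butyrate against Control was 0.37. That value does not cover B12+Butyrate against B12, where fewer members were past 1.5-fold with the same proportions than without.

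Whether a few high cells or a general shift carried the difference was read after thinning each monocyte-like cell to 2000 UMIs. The mean number of member UMIs per cell was 6.45 in Butyrate and 4.43 in Control, and 5.94 in B12+Butyrate against 4.67 in B12. The medians were 5 and 3, and 4 and 3. The thinning left out 23 and 25 cells of Butyrate and Control, and 11 and 34 of B12+Butyrate and B12. When the cells of each library were ranked by member UMIs and cut into 5 equal groups, the ratio of means in Butyrate against Control was 1.52, 1.58, 1.53, 1.52 and 1.39 from the lowest to the highest group. For B12+Butyrate against B12 it was 1.79, 1.44, 1.29, 1.29 and 1.22. Every group was higher in the butyrate library, so the difference in the summed members was not confined to the cells at the top. That sum is weighted by Ifi27l2a, which held 37.1% of member UMIs in these cells, and the groups were not cut without it.

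More cells also passed a fixed cut of 10 member UMIs, summed over all 39 members, in the butyrate libraries. Such a share rises under a general shift too, so it does not measure the tail apart from that shift. Cells with 10 or more member UMIs made up 19.7% (17.7% to 21.9%) of Butyrate and 8.71% (7.54% to 10.003%) of Control monocyte-like cells, with exact binomial intervals. In B12+Butyrate they made up 17.4% (15.2% to 19.7%), against 11.2% (9.60% to 12.9%) in B12. Neutrophil-like cells thinned alike gave 0.802% in Butyrate and 1.09% in Control, and 0.930% in B12+Butyrate and 1.23% in B12, at full median depths of 13028 to 14798.5 UMIs against 11396.5 to 12236 in monocyte-like cells. Before thinning, the summed levels given above showed the same order of the 4 libraries.

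**Figure D4:**
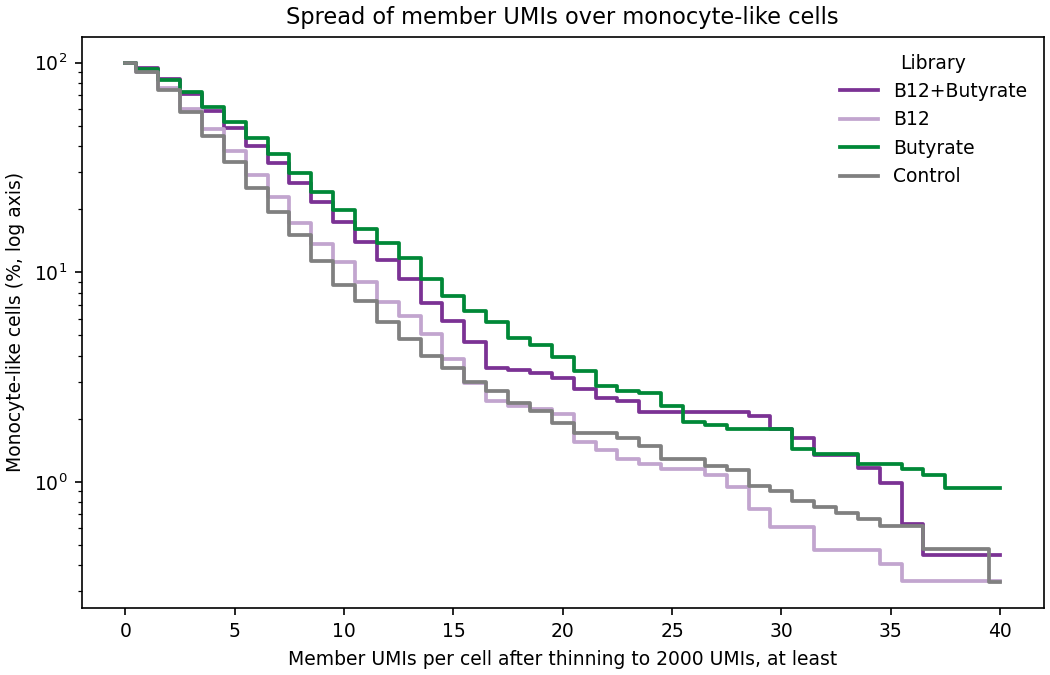
Share of monocyte-like cells (log axis, %) with at least the given number of member UMIs after thinning each cell to 2000 UMIs, for the 4 libraries. The Butyrate and B12+Butyrate curves lie above B12 and Control from 2 UMIs into the tail, reaching 19.7% and 17.4% at 10 UMIs against 11.2% and 8.71%.

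Within the monocyte-like class the members differed in how far they were held by few cells. For each member, the cells were ranked by the UMIs of the other 38 members per total UMIs, and the top 5% of each library taken. These cells held 78.6% of Ifit3 UMIs over the libraries, 77.0% of Ifit1, 68.2% of Ifit2, 60.3% of Rsad2 and 46.3% of Isg15. By contrast they held 5.50% of Irf9, 8.54% of Irf1, 8.80% of Ifi27l2a and 12.7% of Bst2 UMIs. In the ranking for Irf9 the top cells held 3.499% to 4.10% of all UMIs of the class, so its share of 5.50% was also above that of an average transcript. Most UMIs of Ifit1, Ifit2, Ifit3 and Rsad2 therefore came from the top cells, and few of those of Irf9, Irf1 and Ifi27l2a.

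A set of 15 lower antiviral members comprised the IFIT and synthetase genes, Isg15, Usp18, Rsad2, Cmpk2, Mx1 and Irf7. Cells with 5 or more thinned UMIs of this set made up 4.38% (3.37% to 5.59%) of Butyrate and 2.29% (1.69% to 3.02%) of Control monocyte-like cells. They made up 3.76% (2.73% to 5.05%) in B12+Butyrate and 2.50% (1.77% to 3.43%) in B12, against at most 0.787% of neutrophil-like cells in any library. The intervals were apart against Control and overlapped against B12.

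In the other 95% of cells, 29 of 34 measured members were higher in Butyrate than in Control, with a median log2 ratio of 0.33, and 31 of 35 were higher in B12+Butyrate than in B12, with a median of 0.17. Over all genes past the same minimum, with cells ranked once by all 39 members, 52.1% and 46.9% were higher in those cells, with medians of 0.01 and −0.01. Ifi27l2a was at 1120.0 CPM in Butyrate against 618 in Control in those cells, and at 934 and 667 CPM in B12+Butyrate and B12. Ifit3 was at 6.22 and 2.61 CPM in Butyrate and Control, and at 4.44 and 2.48 CPM in B12+Butyrate and B12. In the top 5% of cells the medians were 0.23 and 0.51, with 30 of 34 and 32 of 35 higher, against 43.9% and 46.9% of genes.

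**Figure D5:**
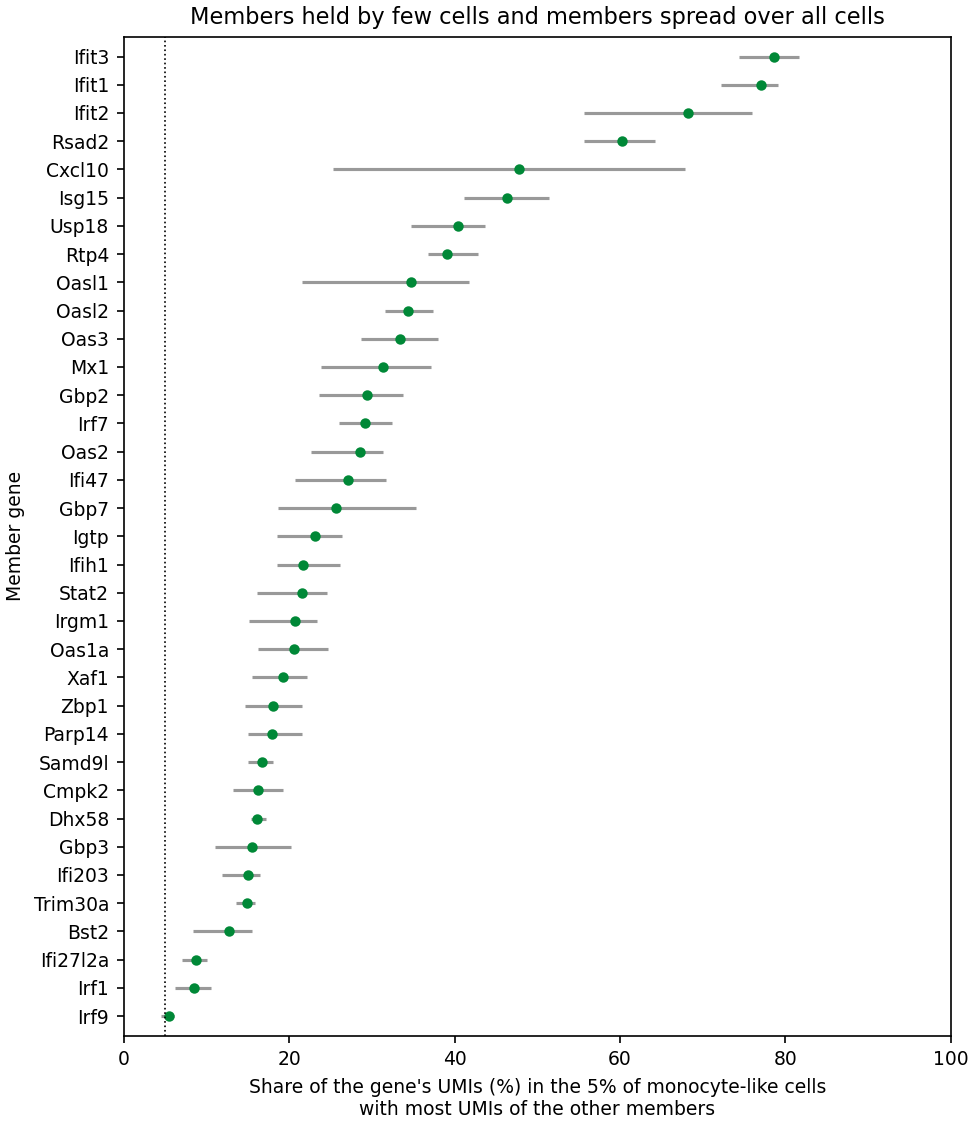
Share of each member's UMIs (%) found in the 5% of monocyte-like cells with most UMIs of the other members, for the 35 members that reached 10 CPM in a library; points are all libraries together, lines run from the lowest to the highest library, and the dotted line marks the share of cells, 5%, not of UMIs. Ifit3 (78.6%) and Ifit1 (77.0%) lie at one end and Irf9 (5.50%) at the other, with the widest range for Cxcl10.

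Cxcl10 departed from that pattern in B12. Its share in the top cells was 25.3% in B12, against 67.9% in B12+Butyrate, 53.8% in Butyrate and 55.5% in Control. In the other 95% of cells its level was 31.7 CPM in B12, against 11.9 in B12+Butyrate, 12.3 in Butyrate and 10.8 in Control. The 838 UMIs in B12 came from 222 cells, with at most 57 in 1 cell. The excess of Cxcl10 in B12 thus lay in cells that were not rich in the other members. Ifnb1 had 22 UMIs in the same library, and a link between the genes was not tested.

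The members with and without an ISRE core match were set side by side, and the difference between them was not tested. A window without a match does not show that the gene lacks the element elsewhere or in another form. In Butyrate against Control, 12 of 16 measured members with a match in their window were higher, with a median log2 ratio of 0.28, and 10 of 10 without one, with 0.40. The 4 that were not higher, Gbp2, Gbp3, Gbp7 and Ifih1, all carry a match. For B12+Butyrate over B12, 16 of 17 with a match were higher, with a median of 0.19, and 9 of 10 without, with 0.21. Gbp3, shown above with 2 matches, was at −0.15 and 0.08.

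In B lineage-like cells the B12 library stood apart from the other 3. The 6 highest members were Ifi203, Samd9l, Ifi27l2a, Trim30a, Irf1 and Parp14. Samd9l had 178 CPM in B12+Butyrate against 283 in B12, and 195 in Butyrate and 182 in Control. It was the 1 member past 1.5-fold in B12+Butyrate against B12 (lower) and in B12 against Control (higher), against 0.766% and 1.98% of genes in those directions. Ifi27l2a had 189 CPM in B12+Butyrate against 232 in B12, and 192 in Butyrate and 183 in Control. Ifi203 had 256 CPM in B12+Butyrate against 305 in B12, and 246 in Butyrate and 278 in Control, and Trim30a ran from 106 to 112 CPM. Irf1 ran from 68.9 CPM in Control to 89.8 in B12 and Parp14 from 63.7 CPM in B12+Butyrate to 79.3 in B12. Of 20 measured members, 16 were lower in B12+Butyrate than in B12, against 52.4% of genes, with a median log2 ratio of −0.23. In Butyrate against Control the median over 18 was 0.04.

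The B12 library held 509 B lineage-like cells, against 844 to 1023 in the others, at a median of 3967 UMIs against 4876 to 5209. Its precursor markers were also high, with Vpreb3 at 447 CPM against 307 to 403, and Igll1 at 119 CPM against 70.9 to 97.6. Ighd, a marker of mature B cells, was at 655 CPM in B12 and 604 to 647 in the others. The part of this makeup in the members' levels was not tested.

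T-like cells differed most between B12+Butyrate and B12, on few cells. The class held 148 (B12+Butyrate), 115 (B12), 255 (Butyrate) and 315 (Control) cells. Ifi27l2a ran from 348 CPM in B12 to 395 in Butyrate, Ifi203 from 241 to 278, and Parp14 from 126 to 139 CPM. Irf1 had 198 CPM in Butyrate against 134 in Control, and 158 in B12+Butyrate against 192 in B12. Relative to B12, 11 members were lower in B12+Butyrate by 1.5-fold or more, against 7.03% of genes, and none was higher, against 9.03%. They were Ifit2, Ifit3, Isg15, Oasl1, Bst2, Ifi47, Rtp4, Usp18, Cxcl10, Trim30a and Samd9l. Bst2 had 71.5 CPM in B12+Butyrate against 131 in B12, against 82.1 in Butyrate and 69.0 in Control. Of its 74 UMIs in B12, 25 came from 1 cell, and 10 of 15 Cxcl10 UMIs in B12 came from 1 cell. Without the cell richest in each member, Bst2 had 68.0 CPM in B12+Butyrate against 89.9 in B12, and 8 of the 11 were still past 1.5-fold, with Bst2, Cxcl10 and Oasl1 no longer so. Trim30a had 104 CPM in B12+Butyrate against 176 in B12, against 135 in Butyrate and 136 in Control, and Samd9l had 93.7, 153, 141 and 129.7 CPM in the same order. Ifit2 rested on 5 UMIs in B12+Butyrate and on 30 in B12, of which 12 came from 1 cell.

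Of the other T-like comparisons, Ifit2, Isg15, Bst2 and Rtp4 were 1.5-fold or more higher and Ifih1 lower in B12 against Control, against 5.48% and 9.67% of genes; Bst2 and Ifit2 were not past it without the richest cells. Iigp1 was the 1 member past 1.5-fold in Butyrate against Control, against 2.28% of genes higher, at 87.0 CPM in Butyrate against 47.9 in Control. Relative to Butyrate, 6 members were lower in B12+Butyrate by that much, against 4.89% of genes (Ifit1, Ifit2, Ifit3, Mx1, Ifih1 and Cxcl10, all but Ifit3 also without the richest cells). These 6 had at most 54.5 CPM in Butyrate.

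Neutrophil-like and GMP-like cells had the lowest summed levels. In neutrophil-like cells, with 2762 to 4494 cells a library, Samd9l ran from 155 to 170.2 CPM, Ifi27l2a from 32.3 to 41.1, Irf1 from 30.7 to 34.9 and Trim30a from 23.0 to 35.2 CPM. Cmpk2 ran from 23.9 to 28.6 and Irf9 from 17.1 to 20.6 CPM. Bst2 was at 7.46 CPM in Butyrate against 17.2 in Control, and at 8.83 in B12+Butyrate against 7.87 in B12. It was the 1 member past 1.5-fold in any comparison, lower in Butyrate and in B12 than in Control, against 0.49% and 0.434% of genes. No member was higher by that much in either, against 0.101% and 0.0434% of genes. For B12+Butyrate over B12 no member passed 1.5-fold, against 0.0587% of genes higher and 0.0881% lower, nor for B12+Butyrate over Butyrate, against 0.0146% and 0.0584%. The median log2 ratio of the 12 measured members in Butyrate against Control was −0.05, beside 0.36 in monocyte-like cells. The difference between the classes was not tested.

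GMP-like cells led with Bst2 at 62.7 CPM in Butyrate against 86.6 in Control, and 89.9 in B12+Butyrate against 79.2 in B12. Ifi47 ran from 37.3 to 44.6 CPM, Trim30a from 33.6 to 40.3, Irf1 from 30.4 to 37.8, Samd9l from 21.6 to 23.5 and Ifih1 from 17.8 to 25.5 CPM. No member was past 1.5-fold in these cells in any comparison. In Butyrate over Control 0.332% of genes were higher and 0.415% lower by that much, in B12+Butyrate over B12 0.0952% and 0.0476%, in B12 over Control 0.0237% and 0.273%, and in B12+Butyrate over Butyrate 0.0832% and 0.369%. Of 17 measured members, 16 were higher in B12+Butyrate than in B12, against 37.1% of genes, with a median of 0.13. Among 16 members measured in both butyrate comparisons, 9 (56.25%) were higher in both, against 17.2% of genes. In the other direction, 1 was lower in both, against 44.2% of genes. A higher share of members in both comparisons was thus not particular to monocyte-like cells.

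HSC/MPP-like cells, 33 to 93 a library, expressed Ifi203 at 118 CPM in B12+Butyrate against 113 in B12, and at 144 in Butyrate and 152 in Control. Bst2 ran from 109 to 128 CPM, Trim30a from 57.6 to 75.8, Irf1 from 44.8 to 73.1, Ifi47 from 43.4 to 67.1 and Gbp7 from 35.8 to 52.1 CPM. In Butyrate against Control 14 of 22 measured members were higher, against 45.4% of genes, and Igtp was the 1 past 1.5-fold, higher, against 1.83% of genes higher and 2.88% lower. Gbp3, Iigp1 and Cxcl10 were higher in B12+Butyrate than in B12 and Ifi27l2a, Ifi44 and Samd9l lower by that much, against 3.51% and 5.21% of genes. In B12 against Control, Ifi27l2a and Ifi44 were higher, against 3% of genes, and none was lower, against 2.62%. Oasl2, Iigp1 and Cxcl10 were higher in B12+Butyrate than in Butyrate and Irf1 and Ifi27l2a lower, against 3.9% and 3.78% of genes. These counts lie on few cells, and most of the higher ones were lost without the cell richest in each member. Then 1 of the 3 higher in B12+Butyrate against B12, 0 of 2 in B12 against Control and 0 of 3 in B12+Butyrate against Butyrate were still past 1.5-fold. Igtp in Butyrate against Control was kept. Of the lower ones, 2 of 3 were kept in B12+Butyrate against B12 and 2 of 2 in B12+Butyrate against Butyrate.

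Plasmacytoid DC-like cells had Bst2 at 3229 CPM in B12+Butyrate against 3244 in B12, and at 2757 in Butyrate and 3032 in Control. Ifi27l2a was the member past 1.5-fold in Butyrate against Control, at 484 CPM in Butyrate against 293 in Control, against 6.96% of genes higher, and had 489.98 CPM in B12+Butyrate against 383 in B12. Ifih1 and Dhx58 were lower by that much in Butyrate, against 5.79% of genes, on 5 UMIs against 13 in Control and 4 against 12. Trim30a ran from 311 to 360 CPM, Irf1 from 131 to 186, Ifi203 from 122 to 156 and Stat2 from 79.5 to 149 CPM. The B12 library held 21 of these cells, so its ratios rest on few UMIs. In B12+Butyrate against B12, Ifit2, Irf7, Stat2, Oasl1, Igtp and Iigp1 were higher and Irgm1 lower, against 17% and 14.8% of genes. In B12 against Control, Ifit2 was higher and Irf7, Oasl2, Igtp, Dhx58 and Ifi44 lower, against 12.4% and 14.2% of genes. In B12+Butyrate against Butyrate, Ifit2 and Samd9l were higher, against 8.88% of genes. Of the 26 Ifit2 UMIs in B12+Butyrate, 15 came from 1 cell. Without the cell richest in each member, 3 of the 6 higher in B12+Butyrate against B12 were kept, with Igtp, Iigp1 and Oasl1 lost. In B12 against Control, 0 of 1 higher and 2 of 5 lower were kept.

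In conventional DC-like cells, 46 to 108 a library, Ifi27l2a had 400.2 CPM in Butyrate against 271 in Control, and 333 in B12+Butyrate against 393 in B12. Ifi203 ran from 226 to 322 CPM, Bst2 from 165 to 248, Trim30a from 156 to 199 and Samd9l from 125 to 201 CPM. Ifit2 had 44.4 CPM in B12+Butyrate against 224 in B12, and 28.9 in Butyrate and 46.0 in Control. Of its 110 UMIs in B12, 45 came from 1 cell, so the high value rests on few cells. In Butyrate against Control, Isg15, Irf7, Gbp2 and Iigp1 were 1.5-fold or more lower, against 3.73% of genes, and 21 of 31 measured members were lower, against 49.2% of genes. In Control 1 cell gave 51 of 86 Irf7 UMIs, 1 gave 32 of 68 Isg15 UMIs and 1 gave 11 of 17 Iigp1 UMIs. With the cell holding most UMIs of each member left out of every library, Irf7, Isg15 and Iigp1 were no longer past 1.5-fold. The median log2 ratio was −0.20 over all cells, 0.075 without those cells and 0.29 with cells thinned to 2000 UMIs, so the direction in this class changed under both. In B12+Butyrate against B12, Ifit3, Irf7, Rsad2, Cxcl10 and Ifi44 were higher and Ifit2, Irf1 and Ifih1 lower, against 8.67% and 8.54% of genes. In B12+Butyrate 1 cell gave 17 of 17 Cxcl10 UMIs, 19 of 24 Ifit3 UMIs came from 1 cell and 14 of 21 Rsad2 UMIs from 1 cell. Of the 5 higher members only Irf7 was still past 1.5-fold without the richest cells, and of the 3 lower ones Ifit2 and Ifih1. In B12 against Control, Ifit2, Irf1, Irf9 and Ifi47 were higher and Irf7, Oasl1, Iigp1 and Cxcl10 lower, against 6.83% and 8.51% of genes; 3 of the 4 higher and 0 of the 4 lower were still past it without the richest cells. In B12+Butyrate against Butyrate, 8 members were higher and Irf1 lower, against 4.04% and 5.17% of genes; the 8 were Isg20, Irf7, Rsad2, Mx1, Ifi47, Zbp1, Ifi44 and Samd9l, of which 3 were still past 1.5-fold without the richest cells.

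NK-like cells, 31 to 40 a library, led with Ifi203 at 258 CPM in Butyrate against 353 in Control, and 339 in B12+Butyrate against 325 in B12. Samd9l ran from 138 to 198 CPM, Irf1 from 126 to 219, Trim30a from 103 to 192, Gbp7 from 67.0 to 104 and Ifi47 from 56.3 to 113 CPM. The low depth made 1.5-fold ratios common. In Butyrate against Control 7 members were higher and 5 lower, against 16.9% and 18.9% of genes, and in B12+Butyrate against B12 the counts were 7 and 8, against 18.7% and 17.8%. The 7 in the first were Irf7, Oasl1, Oas1a, Gbp3, Xaf1, Rtp4 and Trim30a, and the 5 were Ifit1, Ifit2, Ifit3, Isg15 and Stat2. In the second, Ifit2, Irf9, Rsad2, Bst2, Ifi47, Gbp3 and Dhx58 were higher, and Ifit3, Isg15, Irf1, Oasl1, Irgm1, Xaf1, Rtp4 and Zbp1 lower. In B12 against Control, Isg15, Oasl1, Oas1a, Irgm1, Xaf1 and Rtp4 were higher and Ifit1 and Ifit2 lower, against 21.9% and 18.1% of genes. In B12+Butyrate against Butyrate, Ifit2, Isg15, Rsad2, Stat2, Bst2 and Dhx58 were higher and Irf7, Oasl1, Oasl2 and Rtp4 lower, against 18.3% and 13.8% of genes. The shares of members past 1.5-fold in these cells were of the order of those for all genes.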

How the data were processed

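Deposited values are UMI counts for every gene in every barcode. Per the file headers, the authors produced these counts with Cell Ranger 7.1.0, and the submitters' processing notes name GRCm39. Names of genes and barcodes (unit other) are used as deposited. The sources used here do not say whether intronic reads were counted. The members, lists and gate levels were chosen with earlier results of these data known, and gate levels were read from the distribution of marker UMIs over all kept cells.

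Barcodes were kept from 500 detected genes and 1000 UMIs upward, with mitochondrial UMIs up to 10%. A cell entered a class with at least 2 of its markers and a summed marker level per 10000 UMIs of 20 (monocyte, plasmacytoid DC, B lineage), 80 (neutrophil), 120 (GMP), 12 (HSC/MPP), 8 (conventional DC, T) or 5 (NK). Cells in several gates, 5.02% to 6.99% of a library, were left out as possible doublets. UMIs were summed per class and library. Ratios are log2 of (CPM + 10), called at 1.5-fold with at least 10 CPM in either library, and with 1 library per group no test was run. Intervals are exact 95% Poisson or Clopper-Pearson intervals. Python 3.11.15, numpy 2.4.6, scipy 1.17.1 and pandas 2.3.3 were used, and the calculations were tested on simulated data. The simulated class sums were independent Poisson counts, so that test cannot cover the clustering of UMIs in few cells. Named members reached 50 CPM in monocyte-like cells, or in other classes ranked in the top 6 or passed 1.5-fold; of each pathway list the 3 with the largest ratios, with the receptors, kinases and STATs, were named, except 1 result that is not reported here; other members were named after their values were seen. Alternatives varied the pseudocount, minimum, scaling, gates, mitochondrial limit, doublets, depth and cells.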

Additional observations from a re-analysis of the deposited data

Results flagged for a closer look

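Ifi27l2a in monocyte-like cells differed in direction between the 2 B12 comparisons. Its log2 ratio was 0.094 in B12 against Control and −0.28 in B12+Butyrate against Butyrate, and counting intervals were apart in both; the difference between the comparisons was not tested.

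Ifit2 in T-like cells had log2 ratios of 0.91 in B12 against Control and −1.40 in B12+Butyrate against Butyrate, the first resting on 30 UMIs in B12 and the second on 5 UMIs in B12+Butyrate. Ifit2 in NK-like cells had −2.36 in Butyrate against Control, on 1 UMI in Butyrate and 14 in Control, and 1.62 in B12+Butyrate against B12, on 31 UMIs in B12+Butyrate and 4 in B12. Neither difference was tested.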

How the results depend on the processing

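No paired analysis was possible because each group is 1 library, and leaving out a replicate was not possible for the same reason. In monocyte-like cells the median log2 ratio of Butyrate against Control ran from 0.31 to 0.44 over 13 settings, and that of B12+Butyrate against B12 from 0.16 to 0.28. With a pseudocount of 1 CPM the medians were 0.44 and 0.28, and 11 members were 1.5-fold or more higher in Butyrate than in Control. The share of all genes past 1.5-fold was not counted with that pseudocount. With no minimum level the Butyrate against Control median was 0.31. Without the 5% of cells with most member UMIs, the B12+Butyrate against B12 median was 0.16, with 0 members past 1.5-fold higher and 1 lower, and the B12 against Control median was 0.081. The number of members higher in B12+Butyrate than in B12 by 1.5-fold was 1 with the looser gate, with the same makeup of subsets and without the cell richest in each member. In B12 against Control no member was past 1.5-fold (0) without the cell richest in each member, with at most 5% mitochondrial UMIs, with cells thinned to 2000 UMIs or with the same makeup, and thinning gave a median of 0.064. Thinning also gave 1 member lower in B12+Butyrate against Butyrate. Without Ifi27l2a and Samd9l the ratio of mean member UMIs per thinned cell was 1.32 in Butyrate against Control and 1.21 in B12+Butyrate against B12. Medians reversed in neutrophil-like cells on thinning (−0.035 for B12+Butyrate against B12, 0.047 for B12 against Control) and in conventional DC-like cells on thinning (0.29, Butyrate against Control), without the cell richest in each member (0.075, the same comparison) and with the looser gate (−0.14, B12+Butyrate against Butyrate). Of 32 medians in classes other than monocyte-like, 20 had both signs over the settings; Butyrate against Control ran from −0.17 to 0.11 in GMP-like and −0.12 to 0.46 in NK-like cells, and B12+Butyrate against B12 from −0.20 to 0.33 in HSC/MPP-like cells. Leaving out the cell richest in each member and leaving out barcodes found in another library were chosen after seeing the data; the second gave 0.37 for Butyrate against Control. The causes of these changes were not tested. Counting depth limits the classes of fewer than 50 cells most, and pooled mice leave the spread between animals unmeasured.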
